A study of Mus musculus with 17 samples.

Results

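The livers described here came from mice with carbon tetrachloride (CCl4) fibrosis in which cells expressing FSP1 had been ablated. They were chosen by their titles, which give 4 FSP1 ablated arrays of the 17 in the series. They were compared across all genes with the 6 arrays of CCl4 fibrosis in which the ablation transgene was negative. Each array holds total RNA of whole mouse liver, read on a 1-colour Illumina bead array. The 4 healthy arrays (no transgene, no treatment) and the 3 arrays of CCl4 fibrosis with aSMA-expressing cells ablated serve as further reference. All groups except the healthy one carry the CCl4 injury.

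The submitters mark the FSP1 ablated samples as FSP1 + in a field named tk, the aSMA ablated samples as aSMA +, the CCl4 samples as Neg and the healthy samples as No. That symbol is commonly used for viral thymidine kinase, which makes dividing cells that carry it sensitive to an antiviral prodrug. The labels give no promoter, prodrug, strain, sex, age or duration of CCl4 and do not tie an array to an animal. Arrays were therefore treated as the replicates, and p-values measure the spread between arrays, which may be partly technical. In whole liver, fewer cells of a type and less RNA per cell cannot be told apart.

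CCl4 is turned into a radical by pericentral hepatocytes, which die and are replaced by division of the surviving hepatocytes. Around the dying cells, stellate cells turn into contractile myofibroblasts that lay down fibrillar collagen. FSP1 is the protein of S100a4, a small calcium-binding protein that was first used as a fibroblast marker and is also made by macrophages and other blood-derived cells of injured tissue.

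Values are log2 intensities after background correction and quantile normalization, referred to below as log2 signal. Differences are log2 signal of FSP1 ablated minus CCl4 liver from limma, with standard errors (SE) and Benjamini-Hochberg adjusted p over all 13065 genes tested, and a gene passed at an adjusted p under 0.05. The values of single genes are given for FSP1 ablated arrays 1 to 4 in that order, and for the 6 CCl4 arrays as the lowest, the median and the highest. Levels of different probes are not comparable with each other. The correction adds an offset of 50 to every intensity, which shrinks the differences of dim probes.

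Between 13835 and 16335 probes were detected per array. On the deposited scale the upper quartile lay at 63.7 to 65.7 for healthy livers and at 165.4 to 178.8 for the other 13, a difference in scale between healthy and CCl4-treated livers. The hepatocyte transcript Apoa2 had a log2 signal of 14.45 to 14.65 on the FSP1 ablated arrays and 14.36 to 14.60 on the CCl4 arrays and was thus high in both groups. The CCl4 arrays did not form a single group. Xist, the transcript that silences an X chromosome in female cells, was at 7.98, 8.38 and 8.55 on CCl4 arrays 1 to 3 and at 6.07, 6.04 and 6.14 on arrays 4 to 6, while the FSP1 ablated arrays read 7.78, 7.36, 7.79 and 8.05. The Y-linked Eif2s3y was high (9.54 and 9.55) on CCl4 arrays 5 and 6 and at 5.73 to 5.97 on the other CCl4 arrays. On CCl4 array 4 neither signal was high. The healthy arrays read 5.76 to 5.96 in Xist and 9.27 to 9.40 in Eif2s3y, where the FSP1 ablated arrays read 5.78 to 5.90. Healthy ranges given below thus come from arrays that differ from the FSP1 ablated ones in both signals. These ranges also rest on quantile normalization across the difference in scale, and were not recomputed under the alternatives. The probe for albumin, Alb, ran from 6.45 to 9.33 over the CCl4 arrays and from 6.41 to 6.66 over the FSP1 ablated arrays. It read 6.29 to 6.75 on the healthy arrays, low for the main transcript of liver, so its level is not read as albumin expression here. The FSP1 ablated arrays were thus closer to CCl4 arrays 1 to 3 than to arrays 4 to 6 in Xist, and apart from arrays 5 and 6 in Eif2s3y. The part of this split in the results was not tested, and values against CCl4 arrays 1 to 3 and 4 to 6 are given beside many of them.

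The first comparison asks how CCl4 livers differ once cells expressing FSP1 are ablated. Most genes of cell division and of fibrillar collagens, several basement membrane genes, the myofibroblast actin Acta2 and several annexins, galectins and keratins were lower in the FSP1 ablated livers, and some genes of fat synthesis and of sugar use were higher. Of 13065 genes 1663 passed (12.7%), 706 higher (5.40%) and 957 lower (7.32%). A change of at least 2-fold was reached by 72 of the former and 224 of the latter. The 4 and 6 arrays did not overlap for 1367 genes (10.5%), of which 1105 also passed, 437 higher and 668 lower. The genes named as largest rises and falls were picked among these, so their lack of overlap is not further support. Without FSP1 ablated array 2, 1105 genes passed. Counts of list members given below are to be read beside these shares over all genes.

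Against CCl4 arrays 1 to 3 alone 1684 genes passed (12.9%), and against arrays 4 to 6 alone 2185 passed (16.7%). Both sets of passing genes held 815 with the same sign, 286 higher and 529 lower. These comparisons share the FSP1 ablated arrays, so the shared genes are not independent support.

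**Figure D1:**
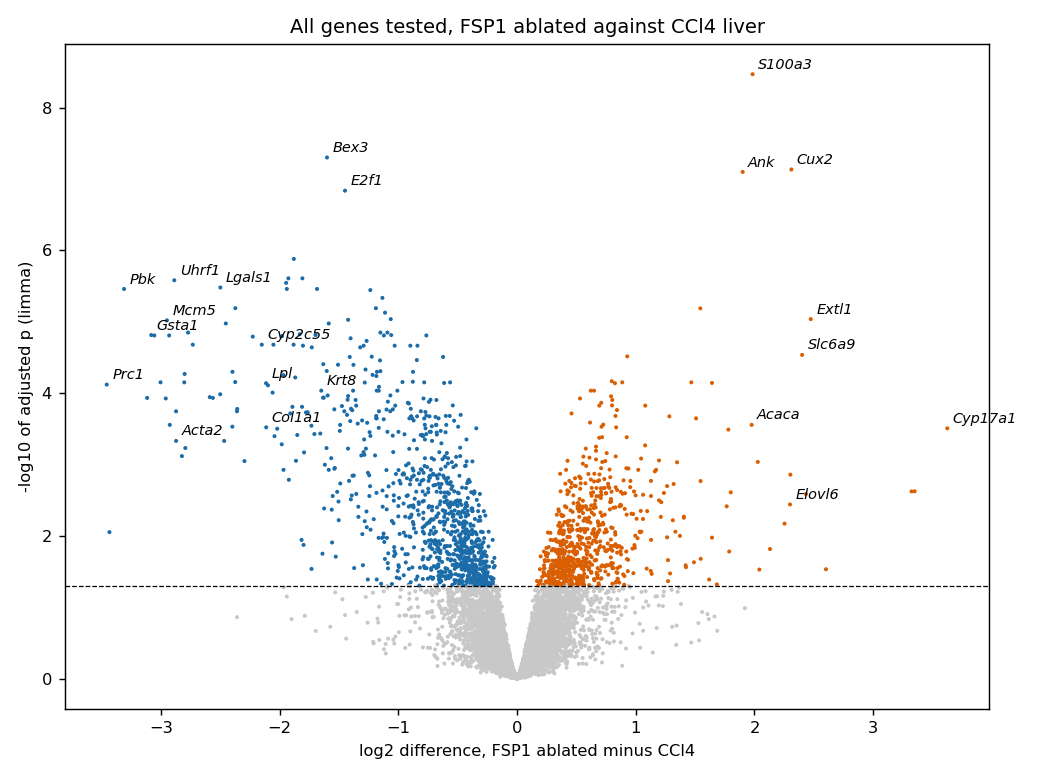
Each point is a gene, placed by its log2 difference between FSP1 ablated and CCl4 liver (x axis) and by the -log10 of its limma adjusted p (y axis); coloured points passed at 0.05 (dashed line), orange higher and blue lower. S100a3, Cux2 and Ank stand at the top right and Bex3, E2f1 and Pbk at the top left, while the fall of Prc1 (-3.46) and the rise of Cyp17a1 (3.62) mark the far sides among the genes labelled.

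The gene that names the ablated cells could not check the labels. S100a4 had a log2 signal of 6.23, 6.14, 6.26 and 6.22 on the FSP1 ablated arrays and of 6.15, 6.24 and 6.35 on the CCl4 arrays. All 17 arrays lay between 6.09 and 6.40, near the background though above its 95th percentile on all 10 arrays compared, and the difference was -0.03 (SE 0.06; adjusted p = 0.848). The S100 family as a whole had 11 measured members, of which 1 rose and 2 fell.

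S100a3, a neighbour of S100a4 in the S100 gene cluster with only S100a2 between them, was the member that rose. It read 7.95, 7.82, 8.21 and 7.68 on the FSP1 ablated arrays and 5.81, 5.92 and 6.10 on the CCl4 arrays. It lay at 5.88 to 6.07 on the healthy and 5.85 to 5.99 on the aSMA ablated arrays. The FSP1 ablated arrays thus stood alone, since S100a3 was above background on 1 of 6 CCl4 arrays and on none of the healthy and aSMA ablated arrays. The difference from CCl4 liver was 1.98 (SE 0.09; adjusted p = 3.41e-09), with 1.88 to 4.68 over all alternatives, higher where the offset was smaller or absent. S100a2 and S100a5, on either side of S100a4, were not among the genes tested.

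S100a6, a calcium-binding protein of proliferating and mesenchymal cells that lies on the other side of S100a4, read 8.76, 7.90, 7.44 and 8.61 against 9.28, 9.79 and 10.39 and fell by 1.62 (SE 0.27; adjusted p = 0.00101). S100a11, which binds annexins, read 10.82, 10.71, 9.35 and 10.86 against 11.71, 12.24 and 12.96 and fell by 1.86 (SE 0.31; adjusted p = 0.000889). The groups did not overlap for either gene, and both were still above the healthy arrays, at 6.72 to 7.13 and 8.02 to 8.49, on every FSP1 ablated array. The neutrophil genes S100a8 and S100a9, in the same cluster, did not pass, with differences of 1.03 (adjusted p = 0.171) and 0.82 (adjusted p = 0.228). They were 0.16 and 0.15 against CCl4 arrays 1 to 3. Against arrays 4 to 6 S100a8 passed at 1.91 (adjusted p = 0.00284), as did S100a9 at 1.48 (adjusted p = 0.0155).

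**Figure D2:**
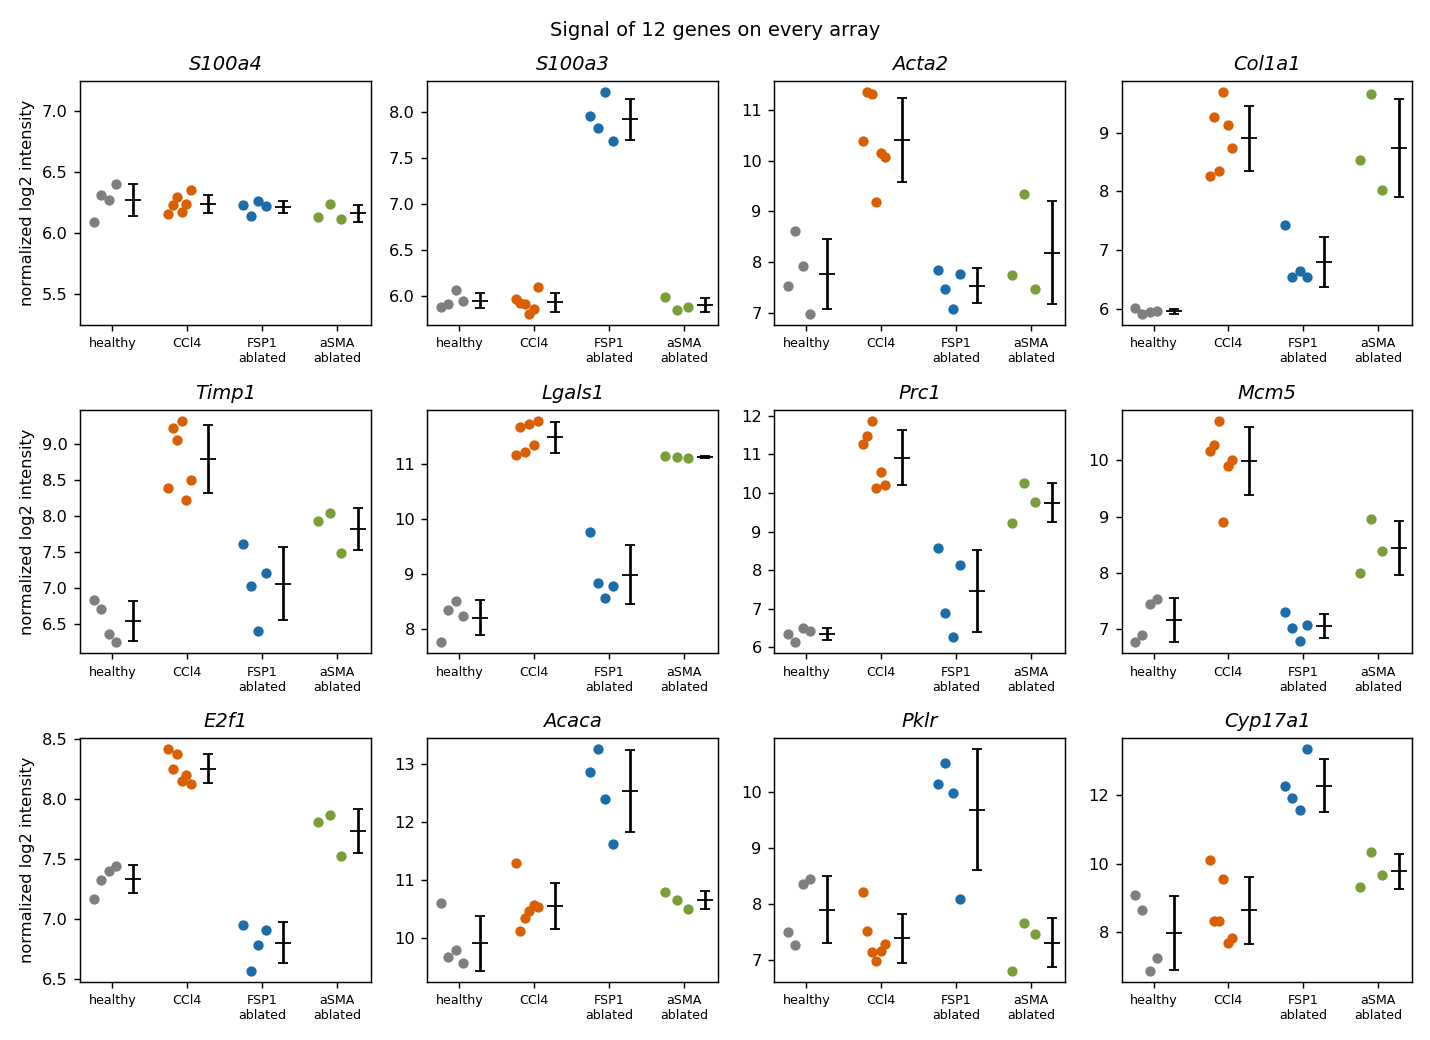
Normalized log2 intensity of 12 genes (y axes) on every array by group (x axes), each point an array; the black mark and bar give the mean and SD of the group. S100a4 is flat near background, S100a3 is raised on the 4 FSP1 ablated arrays only, Acta2, Col1a1, Timp1, Lgals1, Prc1, Mcm5 and E2f1 sit below all 6 CCl4 arrays, and Acaca and Cyp17a1 sit above them.

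Myofibroblast and matrix genes were lower in the FSP1 ablated livers. Acta2, the smooth muscle actin that marks myofibroblasts, had a log2 signal of 7.84, 7.47, 7.07 and 7.76 against 9.18, 10.27 and 11.35 on the CCl4 arrays. No array of one group reached the other, and the FSP1 ablated values fell within the healthy range of 6.98 to 8.62. Acta2 fell by 2.87 (SE 0.44; adjusted p = 0.000468), a 7.32-fold lower signal, and by 3.48 and 2.26 against CCl4 arrays 1 to 3 and 4 to 6.

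Of 17 measured contractile and myofibroblast genes 10 fell and none rose (58.8% called, beside 12.7% of all genes tested). Their median difference was -0.45, beside 0.01 over all genes tested. The count was 8 to 11 under all alternatives. Smtn, smoothelin of contractile smooth muscle, read 7.32, 7.16, 7.10 and 7.19 against 8.06, 8.35 and 8.57 and fell by 1.15 (SE 0.11; adjusted p = 1.42e-05). Myl6, a myosin light chain, fell by 0.62 (adjusted p = 3.12e-05). Vim, the mesenchymal intermediate filament, fell by 1.21. Tagln, a dim probe here, fell by 0.46 (-0.34 to -1.56 over all alternatives) and did not pass against CCl4 arrays 4 to 6 (adjusted p = 0.073). Of these 17 genes, the arrays of the groups did not overlap for 10, beside 1367 of all 13065 genes tested (10.5%).

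Fibrillar and fibril-associated collagens fell in 6 of 8 measured cases and none rose, with a median of -0.58. Col1a1, the main collagen chain of scar, read 7.43, 6.55, 6.65 and 6.55 against 8.26, 8.94 and 9.69, and fell by 2.11 (SE 0.31; adjusted p = 0.000302). FSP1 ablated array 1 was the highest of its group, yet lay below every CCl4 array and above the healthy range of 5.92 to 6.02. Col3a1, its partner in scar fibrils, read 7.08, 6.16, 6.49 and 6.51 against 7.68, 8.24 and 9.03 and fell by 1.81 (SE 0.24; adjusted p = 0.000156). Col5a1, which starts fibril assembly, fell by 1.42 (adjusted p = 0.00011). The probe for Col1a2 gave a smaller difference of -0.28 (adjusted p = 0.0174) and did not pass without FSP1 ablated array 2 (-0.26, adjusted p = 0.0608), when the count of falling collagens was 4, or against CCl4 arrays 1 to 3 (-0.19, adjusted p = 0.125).

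Of 15 basement membrane and collagen VI genes 8 fell and none rose, at a median of -0.43. Col4a1, a chain of the basement membrane network, read 9.57, 9.40, 8.98 and 9.02 against 10.12, 10.70 and 11.03 and fell by 1.42 (SE 0.22; adjusted p = 6e-04). Col4a2, its partner chain, fell by 1.26 (adjusted p = 0.00131), and the linker Nid2 fell by 0.70 with overlapping arrays (adjusted p = 0.00197). All FSP1 ablated arrays were above the healthy range of 7.75 to 8.89 for Col4a1. Without CCl4 array 2 the count was 5.

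Of 17 matricellular, elastic fibre and proteoglycan genes 7 fell and none rose, at a median of -0.42. Sparc, a collagen-binding glycoprotein, read 10.33, 9.26, 9.27 and 9.36 against 10.84, 11.46 and 12.08 and fell by 1.91 (SE 0.26; adjusted p = 0.000193). Array 1 was again the highest of the FSP1 ablated group, with no overlap with CCl4 liver. Tnc, tenascin C of healing tissue, fell by 0.87 (adjusted p = 0.000242) and Fbln2 fell by 0.42 (adjusted p = 0.00505). The proteoglycan genes Dcn and Lum gave 0.21 and -0.39 and did not pass (adjusted p = 0.387 and 0.376).

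Of 16 genes that process and crosslink collagen 9 fell and none rose, at a median of -0.38. Pcolce, which helps trim procollagen, fell by 1.18 (SE 0.17; adjusted p = 0.000226), from a CCl4 range of 7.33 to 8.41 to values of 6.89, 6.76, 6.60 and 6.63. Serpinh1, the collagen chaperone of the endoplasmic reticulum, read 7.36, 6.85, 6.80 and 6.99 against 7.79, 8.21 and 8.48 and fell by 1.16 (SE 0.16; adjusted p = 0.00018). The crosslinking enzyme Loxl2 fell by 0.64 (adjusted p = 0.00117) and Lox fell by 1.10 (adjusted p = 0.0012). The count was 6 on the deposited scale and without FSP1 ablated array 2.

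Among matrix proteases and their inhibitors 5 of 21 fell and none rose, with a median of -0.21. Timp1, the inducible inhibitor of matrix metalloproteases, read 7.61, 7.02, 6.40 and 7.20 against 8.22, 8.78 and 9.33. The groups did not overlap, and Timp1 fell by 1.73 (SE 0.25; adjusted p = 0.000287). Plau, the urokinase that activates plasmin, read 6.60, 6.51, 6.53 and 6.56 against 7.44, 8.12 and 8.88 and fell by 1.66 (SE 0.25; adjusted p = 0.000369). Mmp23 fell by 0.61 overall (adjusted p = 0.0082) and did not pass against CCl4 arrays 1 to 3 (adjusted p = 0.056). Mmp12, the elastase of macrophages, fell by 1.80 (adjusted p = 0.0134) with overlapping arrays, and did not pass against CCl4 arrays 1 to 3 (-1.24, adjusted p = 0.0976).

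Genes that mark the resident mesenchymal cells themselves moved less, though several of their probes were dim, where the offset shrinks differences. Of 17 stellate cell identity genes 2 fell and none rose, at a median of -0.01. Lrat, which stores vitamin A in stellate cells, read 6.20, 6.51, 6.16 and 6.28 against 6.01, 6.25 and 6.63 and did not pass (difference 0.00, adjusted p = 0.994). Reln (-0.43), Des (-0.34) and Cygb (-0.46) did not pass either (adjusted p = 0.253, 0.137 and 0.0693), though Cygb passed without CCl4 array 1 (adjusted p = 0.0452) and Des without CCl4 array 4 (-0.42, adjusted p = 0.0438). The members that fell were Nes, the filament nestin, which fell by 0.53 (adjusted p = 0.00238) and was above background on 2 of the 4 FSP1 ablated arrays, and Hgf, a hepatocyte growth factor, which fell by 0.36 (adjusted p = 0.0472). Hgf lost its call without any 1 array other than CCl4 array 1, with adjusted p from 0.0502 (without CCl4 array 3) to 0.132 (without FSP1 ablated array 3).

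None of 12 portal fibroblast and mesothelial genes passed, with a median of -0.09. The mean of this list was 6.50 to 6.60 on the FSP1 ablated arrays and 6.30 to 6.91 on the CCl4 arrays. Many of its members were thus near background, which limits what their lack of change shows. Thy1 (-0.28, adjusted p = 0.205) and Gpm6a (-0.20, adjusted p = 0.219) are the members with the smallest p. Without CCl4 array 3 Gpm6a passed at -0.27 (adjusted p = 0.0402).

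The TGF-beta pathway is the main fibrogenic signal of the liver. Of its 19 measured genes 3 rose and none fell (15.8% called, beside 12.7% of all genes tested), at a median of 0.01. They were Inhba, a subunit of activin A, at 1.13 (adjusted p = 0.0114), Skil, an inhibitor of SMAD signalling, at 0.85 (adjusted p = 0.0399), and Smad4, the shared SMAD, at 0.35 (adjusted p = 0.0349). Against CCl4 arrays 1 to 3 Inhba was 0.65 higher (adjusted p = 0.0795) and none of the list rose. Against arrays 4 to 6 it was 1.61 higher (adjusted p = 0.000309). Skil and Smad4 each lost the call without any of the FSP1 ablated arrays and without CCl4 arrays 5 or 6, with adjusted p up to 0.12 and 0.118 (both without FSP1 ablated array 2). Skil also lost it without CCl4 array 4 (adjusted p = 0.063) and Smad4 without CCl4 array 1 (adjusted p = 0.0525). The ligand Tgfb1 gave -0.29 and did not pass (adjusted p = 0.176), though it did against CCl4 arrays 4 to 6 (-0.44, adjusted p = 0.0475).

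Annexins and galectins, which bind membranes and cell surface sugars, fell in 8 of 17 cases and rose in 1, with a median of -0.39. Lgals1 (galectin 1) had a log2 signal of 9.77, 8.83, 8.56 and 8.79 against 11.16, 11.51 and 11.79. The lowest CCl4 array was above the highest FSP1 ablated array by more than a unit, and Lgals1 fell by 2.50 (SE 0.21; adjusted p = 3.32e-06). Anxa2, the partner of S100 proteins, fell by 2.02 (adjusted p = 0.000316). Anxa5 read 10.87, 10.68, 10.30 and 10.79 against 11.89, 12.12 and 12.21 and fell by 1.42 (adjusted p = 9.41e-06). Lgals3, a galectin of macrophages and injured epithelium, fell by 1.81 (adjusted p = 0.0114), but by 1.23 against CCl4 arrays 1 to 3 (adjusted p = 0.086). The member that rose was Lgals8, at 0.69.

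Epithelial injury genes were lower as well. Krt8 and Krt18, the paired keratins of hepatocytes, were both lower. Krt18 fell by 1.43 (SE 0.19; adjusted p = 0.000124). Krt8 fell by 1.65 (SE 0.21; adjusted p = 9.25e-05) and read 11.39, 11.44, 11.11 and 11.79 against 12.58, 13.07 and 13.57, and its FSP1 ablated values overlapped the healthy range of 11.03 to 11.59. In the cholangiocyte and keratin list 4 of 15 fell and none rose, with Bicc1 and Tspan8 as the other two. The bile duct markers Krt7 (-0.11, adjusted p = 0.657) and Sox9 (-0.45, adjusted p = 0.131) did not pass, but Sox9 did against CCl4 arrays 1 to 3 (-0.71, adjusted p = 0.022), and Krt19 was not measured above background.

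Of 18 genes of injured or foetal-like hepatocytes 6 fell and none rose, with a median of -0.23. Bex3, an adaptor protein gene switched on in injured liver, read 7.38, 7.26, 6.89 and 7.18 against 8.53, 8.82 and 8.88 and fell by 1.6 (SE 0.09; adjusted p = 5.01e-08). Golm1, a Golgi membrane protein of diseased hepatocytes, read 9.02, 8.83, 8.23 and 9.02 against 10.30, 10.81 and 11.01 and fell by 1.97 (SE 0.23; adjusted p = 5.61e-05). Every FSP1 ablated array stood between the healthy range of 6.42 to 7.06 and the CCl4 range for Golm1. Afp, the foetal albumin, fell by 1.49 (adjusted p = 0.00185), with 3 of 4 FSP1 ablated arrays above background. Spon2, a secreted matrix protein outside these lists, was among the 15 largest falls at -2.87 (adjusted p = 0.00018), and read 9.89, 8.59, 8.12 and 9.25 against 11.18, 11.83 and 12.28.

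Cell division genes held the lowest medians of all lists. Cells enter S phase when E2F factors switch on replication genes, and the mitotic genes that follow carry a cell cycle homology region (CHR) in their promoters. Promoter sequences of RefSeq (GRCm38.p6, the first listed start of each gene, 250 bases before it and 50 after) are shown for the genes with the largest fall that hold each element. The promoter of Prc1 lies at chr7:80294201-80294500 on the plus strand, with the CHR letters TTTGAA in capitals starting 5 bases before the start site.
Prc1: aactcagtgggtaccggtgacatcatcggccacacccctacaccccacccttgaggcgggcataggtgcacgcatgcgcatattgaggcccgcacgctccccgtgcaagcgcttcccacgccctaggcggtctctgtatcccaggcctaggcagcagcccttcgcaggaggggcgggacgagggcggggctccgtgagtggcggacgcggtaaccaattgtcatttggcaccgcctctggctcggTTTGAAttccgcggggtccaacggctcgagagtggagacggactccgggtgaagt

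The promoter of Mcm5 lies at chr8:75109259-75109558 on the plus strand. Its capitals mark 2 overlapping E2F matches, which start 153 and 149 bases before the start site.
Mcm5: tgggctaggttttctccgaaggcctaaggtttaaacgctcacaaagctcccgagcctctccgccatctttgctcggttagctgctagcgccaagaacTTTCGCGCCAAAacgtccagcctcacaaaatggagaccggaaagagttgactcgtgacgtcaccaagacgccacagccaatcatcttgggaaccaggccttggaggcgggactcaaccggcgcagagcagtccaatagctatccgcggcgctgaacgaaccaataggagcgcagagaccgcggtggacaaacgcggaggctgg

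Short windows show the letters around the CHR element (capitals). They are given for the mitosis genes with the largest falls that have it clear of the window's edge. Their places are chr4:118437344-118437373 (minus strand) for Cdc20, chr6:124830194-124830223 (plus) for Cdca3, chr10:69352966-69352995 (minus) for Cdk1, chr7:122159453-122159482 (plus) for Plk1 and chr9:22389168-22389197 (plus) for Anln.
Cdc20: agacagttgggtTTTGAAggagccaatgaa
Cdca3: cgtggagggaagTTTGAAactccgggcttt
Cdk1: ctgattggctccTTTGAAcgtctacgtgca
Plk1: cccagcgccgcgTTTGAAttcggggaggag
Anln: ggccgttcaaaaTTTGAAtttcagcgcccc

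E2F windows (capitals) are shown for replication genes with an element clear of the window's edge, whether or not they fell, at chr1:128359797-128359826 (minus) for Mcm6, chr11:98908002-98908031 (minus) for Cdc6, chr1:20820275-20820304 (plus) for Mcm3 and chr5:138172030-138172059 (plus) for Mcm7.
Mcm6: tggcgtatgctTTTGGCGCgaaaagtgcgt
Cdc6: accccaggcgaTTTCCCGCtctccaccggc
Mcm3: acttcccaagtTTTCCCGCcacggaagttt
Mcm7: tggacaccctgTTTCCCGCggttcgaaatt

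The CHR was searched as TTTGAA or TTCGAA and E2F as TTTCCCGC, TTTGGCGC, TTTCGCGC or TTTGCCGC, on both strands. A CHR was in 23 of 27 promoters of measured mitosis genes (85.2%), against 14.9% of the promoters of all genes tested and 19.4% of all 27025 in the table. The CCAAT box, searched as CCAAT on both strands, was in 20 of the 27 (74.1%), against 38.5% and 37.9%. It was not particular to mitosis genes, with 11 of 14 contractile and myofibroblast promoters (78.6%) and 19 of 35 replication promoters (54.3%). An E2F match was in 8 of 35 promoters of replication genes (22.9%), against 3.56% and 2.32%. A match is a run of letters in a window and shows no binding.

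Of 31 measured mitosis and spindle genes 28 fell and none rose, with a median difference of -1.6. The count was 25 to 30 under all alternatives. Prc1, which bundles the microtubules of the central spindle, had a log2 signal of 8.57, 6.88, 6.27 and 8.13 against 10.14, 10.90 and 11.88. The FSP1 ablated arrays spread widely but stayed below every CCl4 array, and Prc1 fell by 3.46 (SE 0.42; adjusted p = 7.61e-05). It fell by 4.08 against CCl4 arrays 1 to 3 and by 2.83 against arrays 4 to 6. Arrays 2 and 3 lay near the healthy range of 6.13 to 6.51.

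Cdc20, which triggers the exit from metaphase, read 8.20, 6.71, 6.38 and 7.85 against 9.61, 10.34 and 11.44 and fell by 3.12 (SE 0.40; adjusted p = 0.000117). Birc5, survivin of the chromosomal passenger complex, read 7.83, 6.43, 6.35 and 7.25 against 9.01, 10.16 and 10.64 and fell by 3.05 (SE 0.31; adjusted p = 1.56e-05). In these genes FSP1 ablated arrays 1 and 4 were the higher pair and arrays 2 and 3 the lower. The mean log2 signal of the mitosis list was 6.35 to 6.93 over the FSP1 ablated arrays, 7.62 to 8.91 over the CCl4 arrays, 7.27 to 7.76 over the aSMA ablated arrays and 6.25 to 6.48 over the healthy arrays.

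Pbk, a mitotic kinase, fell by 3.31 (SE 0.28; adjusted p = 3.48e-06), with 3 of 4 FSP1 ablated arrays above background. Nusap1 and Kif22, a spindle protein and a chromosome-arm kinesin, fell by 2.77 (adjusted p = 1.42e-05) and fell by 2.37 (adjusted p = 6.47e-06). Cdca3, which promotes mitotic entry, fell by 2.80 (adjusted p = 5.4e-05). The mitotic kinase Cdk1 read 7.01, 6.31, 6.59 and 6.84 against 8.37, 9.51 and 10.20 and fell by 2.73 (adjusted p = 2.1e-05).

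Of 40 DNA replication and S phase genes 33 fell and none rose, at a median of -0.88, with 29 to 36 falling under all alternatives. Mcm5, part of the replicative helicase, read 7.30, 7.02, 6.78 and 7.07 against 8.90, 10.09 and 10.71 and fell by 2.95 (SE 0.28; adjusted p = 9.58e-06). Its FSP1 ablated values lay inside the healthy range of 6.76 to 7.53. E2f1 read 6.95, 6.57, 6.78 and 6.91 against 8.13, 8.22 and 8.42, which also puts every FSP1 ablated array below the healthy range of 7.17 to 7.44. E2f1 fell by 1.45 (SE 0.09; adjusted p = 1.46e-07).

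Uhrf1, which guides maintenance DNA methylation, read 6.77, 6.51, 6.32 and 6.51 against 8.51, 9.55 and 9.77 and fell by 2.89 (SE 0.23; adjusted p = 2.63e-06). Lig1, which seals new DNA strands, read 6.85, 6.74, 7.07 and 6.61 against 8.25, 8.75 and 9.09 and fell by 1.88 (SE 0.14; adjusted p = 1.32e-06). Of the helicase genes with an E2F window above, Mcm6 fell by 2.45 and Mcm3 by 0.49, and the loading factor Cdc6 fell by 0.78, while Mcm7 gave -0.20 and did not pass (adjusted p = 0.37) except against CCl4 arrays 1 to 3 (-0.42, adjusted p = 0.0169). Mcm3 did not pass against CCl4 arrays 4 to 6 (-0.29, adjusted p = 0.0589), and Cdc6 was above background on 1 of the 4 FSP1 ablated arrays. The mean over the replication list was 6.82 to 6.93 on the FSP1 ablated arrays and 6.89 to 7.09 on the healthy arrays, against 7.52 to 8.23 on the CCl4 arrays.

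Probes named for replication-dependent H2A histone genes were 5 of the 15 largest falls: H2ac10, H2ac24, H2ac15, H2ac7 and H2ac22. They fell by 2.80 to 3.0 in log2 signal. These genes are near-identical in sequence, so their probes may read each other and they are uncertain as separate genes. On CCl4 array 4 their signal was the lowest of the CCl4 group, 9.21 for H2ac10 against 10.95 to 11.57 on the other CCl4 arrays.

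Tubulins and their regulators fell in 4 of 15 cases and none rose. Stmn1, which destabilises microtubules in dividing cells, fell by 1.94 (SE 0.17; adjusted p = 3.48e-06), with 2 of 4 FSP1 ablated arrays above background. Tubb6 fell by 1.92 (adjusted p = 0.00164) and Tubb5 by 1.12 (adjusted p = 0.0093), with -1.57 against CCl4 arrays 1 to 3 and -0.67 against arrays 4 to 6 (adjusted p = 0.0558). Of 23 p53 target genes 5 fell and 1 rose, with a median of -0.15. Ccng1 and Phlda3, targets induced by DNA damage, fell by 0.66 (adjusted p = 0.000674) and fell by 0.79 (adjusted p = 0.00131), while the mitotic Gtse1 fell by 1.63 (adjusted p = 0.000116). None of 25 immediate early genes passed, with a median of 0.06. With 1 array left out up to 3 rose and up to 1 fell, and against CCl4 arrays 4 to 6 there were 2 higher.

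Macrophage and other immune genes did not move as a block. Of 18 Kupffer cell and resident macrophage genes 4 rose and 1 fell, at a median of 0.16. Cd163, the haemoglobin scavenger receptor, read 8.45, 8.48, 7.95 and 8.72 against 6.99, 7.44 and 7.82 and rose by 0.96 (SE 0.20; adjusted p = 0.0049). Slc40a1, the iron exporter ferroportin, read 12.21, 12.53, 12.63 and 12.34 against 11.25, 11.65 and 11.97 and rose by 0.77 (adjusted p = 0.00203). Fcna, a ficolin, rose by 0.65 (adjusted p = 0.00361) and Clec4f, a lectin of Kupffer cells, by 0.46 (adjusted p = 0.013), while Folr2, a folate receptor, fell by 0.48. Against CCl4 arrays 1 to 3 Clec4f and Folr2 did not pass (0.42, adjusted p = 0.0571, and -0.41, adjusted p = 0.0799). For Cd163, Slc40a1, Fcna and Clec4f every FSP1 ablated array was above every CCl4 array. The pan-macrophage Adgre1 gave -0.24 and did not pass (adjusted p = 0.363).

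Among 26 genes of scar-associated macrophages and lysosomes 4 fell and 2 rose, with a median of -0.11. Lpl, a lipase of lipid-laden macrophages and other cells, had a log2 signal of 10.74, 9.60, 9.85 and 10.04 against 11.76, 12.21 and 12.47. The groups were separated, and Lpl fell by 2.11 (SE 0.26; adjusted p = 7.28e-05). Fabp5 rose by 0.87 (adjusted p = 0.027) but did not pass without FSP1 ablated array 2 or 4 or without CCl4 array 2 (0.64, 0.70 and 0.84, adjusted p = 0.109, 0.0986 and 0.0521). The list had 1 lower and 2 higher against CCl4 arrays 1 to 3, but 9 lower and 0 higher against arrays 4 to 6. The count of rising genes was 0 without FSP1 ablated array 2 or 4 or CCl4 array 2 and 1 without CCl4 array 6, and that of falling genes was 2 without FSP1 ablated array 2 or 3 or CCl4 array 5 or 6.

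Of 20 monocyte and neutrophil genes 1 fell and none rose. It was Plac8, which fell by 0.66 (adjusted p = 0.00485). Against CCl4 arrays 1 to 3 the list had 0 higher and 1 lower, but 4 higher and 3 lower against arrays 4 to 6. None of 20 T and NK cell genes and none of 17 MHC class II and dendritic cell genes passed, and 1 of 13 B and plasma cell genes fell, Cd180 (adjusted p = 0.0357), which was not above background on any FSP1 ablated array. Cd180 lost its call without any 1 of 7 arrays, FSP1 ablated arrays 1, 2 and 4 and CCl4 arrays 2, 4, 5 and 6 (adjusted p from 0.0598 to 0.114). The B and plasma cell list had 0 lower against CCl4 arrays 1 to 3 and 3 lower against arrays 4 to 6. The T and NK list had 0 and 1 lower. The mean of the T and NK list was 6.24 to 6.50 on the FSP1 ablated arrays and 6.37 to 6.49 on the CCl4 arrays, and that of the B cell list 6.07 to 6.16 and 6.06 to 6.28, both near background. These lists therefore had little signal in either group.

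Of 37 interferon response genes 9 fell and none rose, at a median of -0.31. Dhx58, a regulator of viral RNA sensing, read 7.18, 6.77, 7.5 and 7.21 against 7.61, 8.13 and 8.59 and fell by 0.93 (SE 0.18; adjusted p = 0.00277). Isg15 fell by 1.27 (adjusted p = 0.00758) and Oas1g fell by 1.5 (adjusted p = 0.00604). The count depended on the CCl4 arrays used, with 3 falling against arrays 1 to 3 and 14 against arrays 4 to 6. Isg15 did not pass against arrays 1 to 3 (adjusted p = 0.0553), and its FSP1 ablated values of 6.73 to 7.46 lay below the healthy range of 7.62 to 8.79.

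Of 25 chemokines and receptors 3 fell and 1 rose. Ccl9, a chemokine of myeloid cells, read 10.68, 9.91, 10.73 and 11.14 against 11.75, 12.11 and 12.37 and fell by 1.49 (SE 0.22; adjusted p = 0.000339). The macrophage chemokine Ccl4, not to be confused with the toxin, fell by 1.10 (adjusted p = 0.0107) but did not pass against CCl4 arrays 1 to 3 (-0.61, adjusted p = 0.0692). Cxcl12 rose by 0.67 (adjusted p = 0.0218) and did not pass without FSP1 ablated array 3 or 4 (0.59 and 0.50, adjusted p = 0.0696 and 0.0813) or against CCl4 arrays 1 to 3 (0.59, adjusted p = 0.085).

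Among 31 endothelial genes 1 fell and 1 rose, at a median of 0.01. Icam2 fell by 0.55 (adjusted p = 0.000928) and the sinusoidal scavenger receptor Stab2 rose by 0.23 (adjusted p = 0.0359), a call lost without FSP1 ablated array 3 or 4 or CCl4 array 2, 3, 5 or 6 (adjusted p from 0.0504 to 0.128). Pecam1 gave -0.02 (adjusted p = 0.946). In the blood list 2 of 11 genes fell, with 1 to 4 falling when an array was left out. Pf4 of platelets fell by 1.05 (adjusted p = 0.000395). The globin Hbb-b2 fell by 1.01 (adjusted p = 0.0385) and lost its call without FSP1 ablated array 1, 2 or 4 or CCl4 array 1, 3, 5 or 6 (adjusted p from 0.0631 to 0.147). Without FSP1 ablated array 3 or CCl4 array 3 the count was 3, and without CCl4 array 2 it was 4. The globin Hba-a1 read 10.75, 7.43, 12.24 and 11.28 against 11.71, 12.35 and 12.96 and did not pass (-1.96, adjusted p = 0.0529), with array 2 far below the rest. Without FSP1 ablated array 3 it passed at -2.57 (adjusted p = 0.0125). The mean of the blood list was 6.34 to 7.19 on the FSP1 ablated and 6.98 to 7.68 on the CCl4 arrays, and its part in the other results was not tested.

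**Figure D3:**
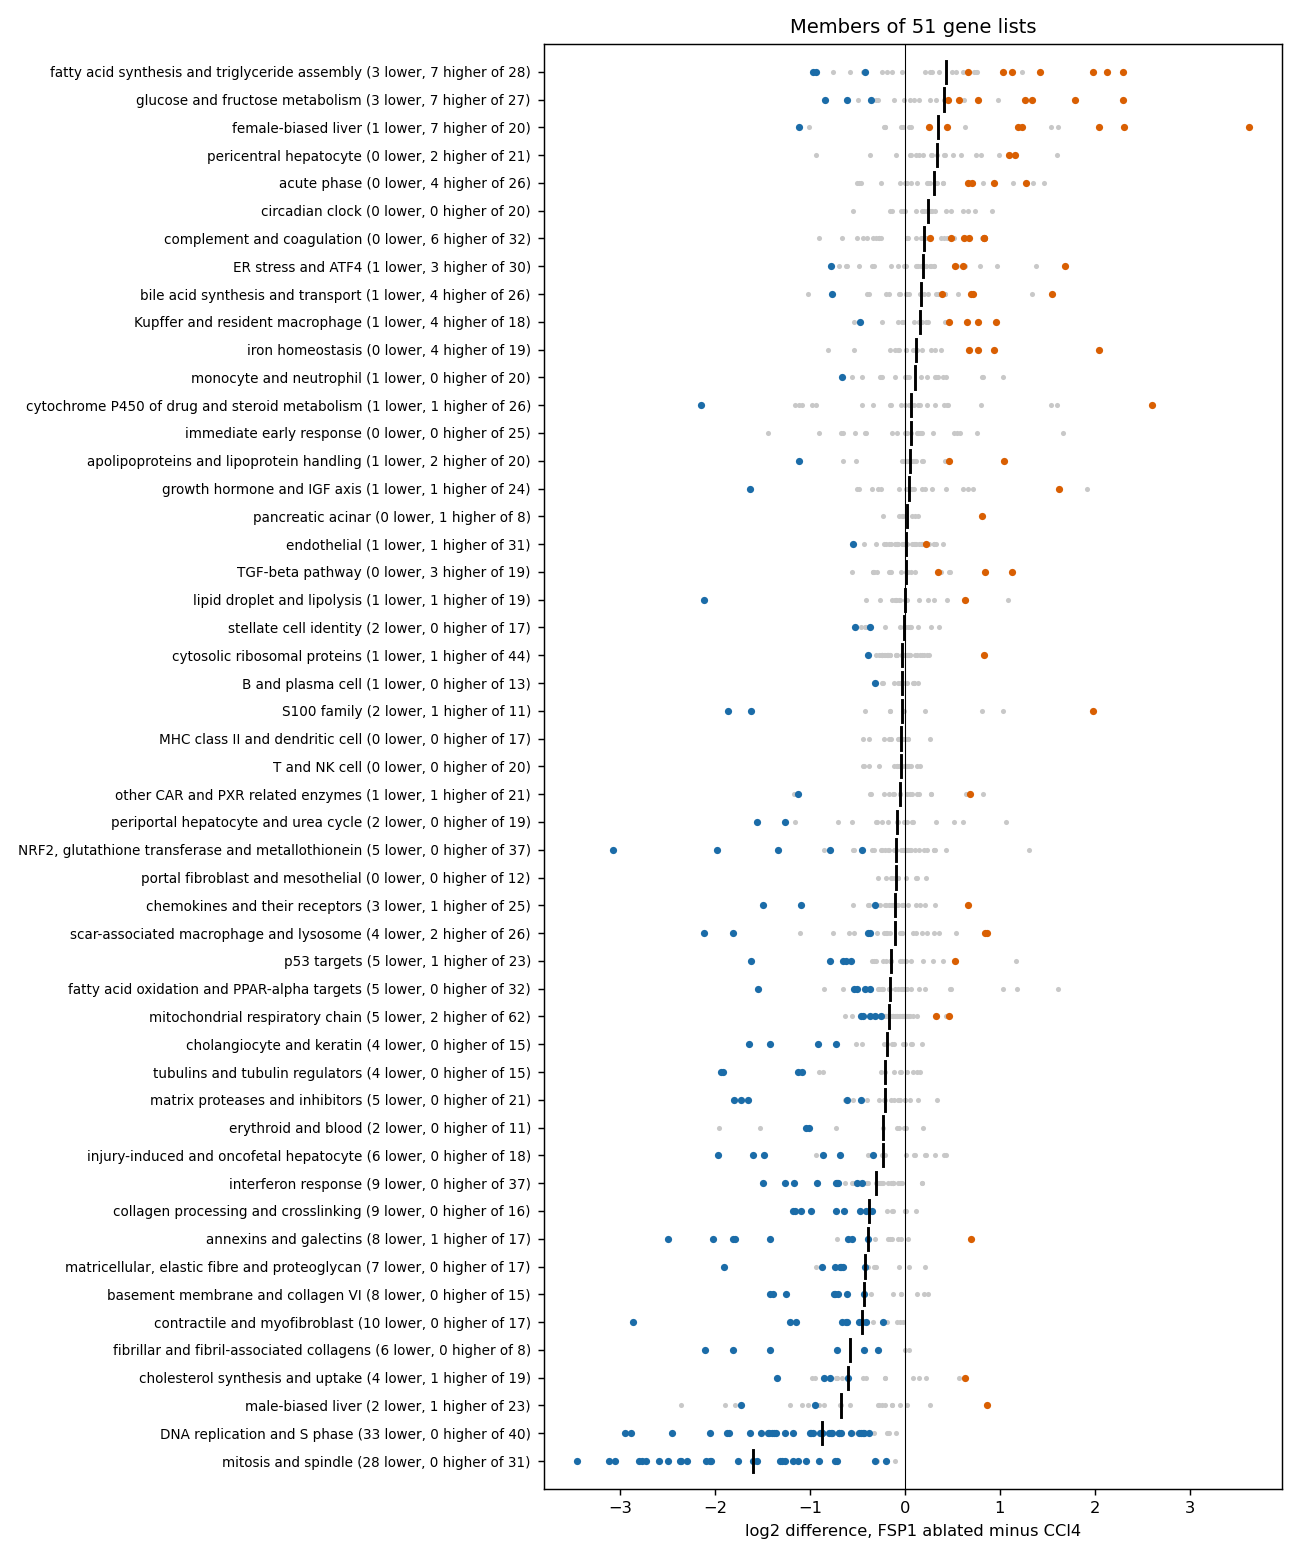
Each line is a gene list with its counts of members lower and higher at an adjusted p under 0.05, and each point a measured member placed by its log2 difference between FSP1 ablated and CCl4 liver; coloured points passed, grey points did not, and the black bar is the list's median. Mitosis (-1.6) and replication (-0.88) stand lowest, and fatty acid synthesis (0.43) and glucose and fructose metabolism (0.41) highest.

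Some of the genes that turn sugar into fat were higher in the FSP1 ablated livers. In hepatocytes this programme runs from glycolysis through acetyl-CoA to fatty acids and triglycerides, under the sugar sensor ChREBP (Mlxipl) and the insulin-driven SREBP-1c (Srebf1). Of 28 measured genes of fatty acid synthesis and triglyceride assembly 7 rose and 3 fell, with a median of 0.43. Acaca, which makes the malonyl-CoA used for fatty acid synthesis, had a log2 signal of 12.86, 13.26, 12.40 and 11.62 against 10.12, 10.51 and 11.30. All FSP1 ablated arrays were above all CCl4, healthy (9.56 to 10.60) and aSMA ablated (10.50 to 10.80) arrays, and Acaca rose by 1.98 (SE 0.29; adjusted p = 0.000279).

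Elovl6, which lengthens palmitate, read 11.69, 12, 11.99 and 9.69 against 8.44, 8.72 and 10.50 and rose by 2.30 (SE 0.46; adjusted p = 0.00364). Fasn, the fatty acid synthase, read 7.69, 7.97, 7.81 and 6.65 against 6.19, 6.35 and 6.83 and rose by 1.13 (SE 0.20; adjusted p = 0.0017). For both, array 4 was the lowest of the FSP1 ablated group and lay below CCl4 array 1, the highest CCl4 array for either gene. Thrsp, a lipogenic regulator, rose by 2.13 (adjusted p = 0.0153) but did not pass without FSP1 ablated array 2 (1.90, adjusted p = 0.0599) or against CCl4 arrays 4 to 6 (1.6, adjusted p = 0.0805).

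Mlxipl itself read 11.43, 11.39, 11.18 and 11.24 against 9.42, 10.27 and 10.95 and rose by 1.04 (adjusted p = 0.00891), but did not pass against CCl4 arrays 1 to 3 (0.85, adjusted p = 0.0552). Srebf1 gave 0.62 and did not pass (adjusted p = 0.0862) unless CCl4 array 4 was left out (0.72, adjusted p = 0.0391), and neither did the desaturase Scd1 (0.50, adjusted p = 0.429). The members that fell were Fads1, Fads2 and Elovl2, which make polyunsaturated fatty acids. Fads2 fell by 0.97 and did not pass without FSP1 ablated array 4 (-0.82, adjusted p = 0.0577), Elovl2 fell by 0.94 and did not pass without FSP1 ablated array 2 (-0.65, adjusted p = 0.0641), and neither passed against CCl4 arrays 4 to 6. Fads1 fell by 0.42 (adjusted p = 0.0405) and lost its call without any 1 of 7 arrays, FSP1 ablated arrays 3 and 4 and the CCl4 arrays other than array 4 (adjusted p from 0.0555 to 0.145).

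Glucose and fructose metabolism had 7 of 27 genes higher and 3 lower, with a median of 0.41. Pklr, the pyruvate kinase of liver, read 10.15, 10.53, 9.99 and 8.10 against 6.99, 7.23 and 8.22 and rose by 2.30 (SE 0.40; adjusted p = 0.00139). Array 4 lay just below the highest CCl4 array, and the other FSP1 ablated arrays lay above all healthy arrays (7.27 to 8.46). Khk, which phosphorylates fructose, read 14.06, 14.31, 14.05 and 13.52 against 12.03, 12.87 and 13.19 and rose by 1.26 (SE 0.23; adjusted p = 0.00201). Its partner Tkfc rose by 1.33 (adjusted p = 0.00876). G6pc, which releases glucose, also rose, by 1.79 (adjusted p = 0.0166), but not without FSP1 ablated array 3 (1.65, adjusted p = 0.0519) or against CCl4 arrays 1 to 3 (adjusted p = 0.0752). Ldha, the lactate dehydrogenase of glycolytic cells, fell by 0.84 (adjusted p = 0.00164).

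Cholesterol synthesis went the other way in a few genes, with 4 of 19 lower, 1 higher and a median of -0.60. Dhcr7, the last enzyme of the pathway, read 8.22, 7.88, 7.83 and 7.33 against 8.64, 9.21 and 9.73 and fell by 1.35 (SE 0.26; adjusted p = 0.00259). Hmgcs1 fell by 0.79 (adjusted p = 0.00876) and Ebp fell by 0.85 (adjusted p = 0.00899). Neither of these passed on the deposited scale (adjusted p = 0.0714 and 0.0673), and the list had 2 lower. Of 32 fatty acid oxidation genes 5 fell and none rose, led by the thioesterase Acot1 (-1.55, adjusted p = 0.00277). That is 15.6% called, beside 12.7% of all genes tested (7.32% lower). On the deposited scale the count of falling oxidation genes was 1, without FSP1 ablated array 2 it was 2, and with array weights it was 7. Of 19 lipid droplet and lipolysis genes 1 rose, the monoglyceride lipase Mgll at 0.63, and 1 fell, Lpl. Mgll did not pass against CCl4 arrays 4 to 6 (0.41, adjusted p = 0.0805).

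Several secreted proteins of hepatocytes were higher. Coagulation and complement genes rose in 6 of 32 cases and none fell, at a median of 0.20. That is 18.8% called, beside 12.7% of all genes tested (5.40% higher). F7, the factor that starts clotting with tissue factor, read 10.42, 10.19, 10.82 and 10.21 against 9.35, 9.59 and 9.80 and rose by 0.83 (SE 0.12; adjusted p = 0.000209). F12, which starts the contact pathway, read 11.51, 11.70, 11.27 and 11.38 against 10.29, 10.73 and 10.91 and rose by 0.84 (SE 0.12; adjusted p = 0.000302). With FSP1 ablated array 4 left out 2 rose. The list had 5 higher and 5 lower when set against CCl4 arrays 4 to 6.

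Of 26 acute phase genes 4 rose and none fell. That is 15.4% called, beside 12.7% of all genes tested (5.40% higher). The count was 1 without FSP1 ablated array 2 and 0 against CCl4 arrays 1 to 3. Lbp, which presents endotoxin, read 11.77, 11.78, 11.68 and 12.51 against 10.32, 10.49 and 11.22 and rose by 1.27 (adjusted p = 0.0219), and did not pass without array 4 (1.08, adjusted p = 0.0772). Hamp, hepcidin, rose by 0.94 (adjusted p = 0.0217) and did not pass without array 1 or array 2 (0.92 and 0.85, adjusted p = 0.0531 and 0.0753). In the iron list 4 of 19 rose and none fell, namely Hamp, Hamp2 of female liver, ferroportin and the iron importer Slc11a2. Hamp2 (2.04, adjusted p = 0.0297) and Slc11a2 (0.68, adjusted p = 0.0284) each lost the call without FSP1 ablated array 3 or CCl4 array 2, 5 or 6, Hamp2 also without FSP1 ablated array 1 or 2 and Slc11a2 without array 4. Their adjusted p were 0.0562 to 0.105 and 0.0567 to 0.106. Apoa5, which lowers plasma triglycerides, rose by 1.05 (adjusted p = 0.00874), Lcat rose by 0.47 and Apoc2 fell by 1.12 among 20 apolipoprotein and lipoprotein genes. Against CCl4 arrays 4 to 6 Apoa5 and Apoc2 did not pass (0.68 and -0.97, adjusted p = 0.0558 and 0.0509).

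Bile acid synthesis and transport had 4 of 26 genes higher and 1 lower (19.2% called, beside 12.7% of all genes tested). Against CCl4 arrays 1 to 3 it had 7 higher and 1 lower, and 3 higher and 4 lower against arrays 4 to 6. Klb, the co-receptor that hepatocytes use for intestinal FGF signals, read 8.38, 8.62, 8.52 and 8.83 against 7.79, 7.89 and 8.0 and rose by 0.69 (SE 0.09; adjusted p = 0.00015). Abcb4, which moves phospholipid into bile, rose by 0.72 (adjusted p = 0.00525). Abcc2, which exports conjugated bilirubin, read 9.58, 9.57, 9.52 and 9.31 against 10.17, 10.26 and 10.40 and fell by 0.77 (SE 0.11; adjusted p = 0.000184). The groups did not overlap for these 3 genes. Cyp7a1, the first enzyme of bile acid synthesis, ranged from 8.54 to 12.55 on the FSP1 ablated arrays and did not pass (1.34, adjusted p = 0.337).

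A few detoxification genes fell, while their list as a whole was called about as often as all genes. Of 37 glutathione transferase, metallothionein and NRF2 genes 5 fell and none rose, at a median of -0.09. That is 13.5% called, beside 12.7% of all genes tested (7.32% lower). Gsta1 had a log2 signal of 7.46, 6.94, 6.99 and 6.86 against 9.80, 10.15 and 10.47, and all FSP1 ablated arrays also lay below the healthy range of 7.78 to 9.51. It fell by 3.08 (SE 0.31; adjusted p = 1.54e-05). Gsta2, close to Gsta1 in sequence, read 8.25, 7.67, 8.91 and 6.83 against 9.34, 9.93 and 10.28 and fell by 1.98 (SE 0.31; adjusted p = 0.000523), and their probes may share signal. Mgst3, a membrane transferase, fell by 0.79 (adjusted p = 4e-04).

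Among 26 cytochrome P450 genes of drug and steroid metabolism 1 rose and 1 fell. Cyp2c55 read 6.30, 6.14, 6.34 and 6.21 against 7.57, 8.46 and 9.01 and fell by 2.15 (SE 0.23; adjusted p = 2.1e-05). Cyp2c39 rose by 2.60 (adjusted p = 0.0294), from a wide CCl4 range of 7.10 to 11.26 to values of 12.16 to 12.34. It did not pass against CCl4 arrays 1 to 3 (1.41, adjusted p = 0.22) or without any of the FSP1 ablated arrays (adjusted p = 0.066, 0.0728, 0.0616 and 0.059 without arrays 1 to 4).

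Cyp2e1, the enzyme that activates CCl4, read 13.83, 13.58, 14.48 and 13.73 against 11.77, 13.51 and 13.91 and did not pass (0.80, SE 0.38; adjusted p = 0.2). It was 1.54 higher than on CCl4 arrays 1 to 3 (adjusted p = 0.00245) and 0.06 higher than on arrays 4 to 6 (adjusted p = 0.915). Of 21 pericentral hepatocyte genes 2 rose and none fell, with a median of 0.34. They were Rhbg, an ammonium transporter, at 1.16 (adjusted p = 0.00125) and Slc13a3, a dicarboxylate transporter, at 1.10 (adjusted p = 0.00451). Of 19 periportal and urea cycle genes 2 fell, the adhesion molecule Cdh1 (-1.27, adjusted p = 0.00456) and Aldh1b1 (-1.56, adjusted p = 0.0124), the latter not against CCl4 arrays 1 to 3 (adjusted p = 0.0934).

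Sex-biased liver genes depended on which CCl4 arrays were compared. The mean of the male-biased list was 9.95 and 9.96 on CCl4 arrays 5 and 6, where Eif2s3y was high, 8.40 on array 4, 8.04 to 8.22 on arrays 1 to 3 and 7.93 to 8.17 on the FSP1 ablated arrays. That of the female-biased list was 6.98 and 7.02 on arrays 5 and 6, 7.64 to 7.92 on the other CCl4 arrays and 8.04 to 8.53 on the FSP1 ablated arrays. Of 23 male-biased genes 1 rose and 2 fell, at a median of -0.67. Against CCl4 arrays 1 to 3 none passed and the median was -0.02, and against arrays 4 to 6 11 fell, 1 rose and the median was -1.09. Of 20 female-biased genes 7 rose and 1 fell at a median of 0.35, with 5 rising against CCl4 arrays 1 to 3, 7 against arrays 4 to 6 and 4 without FSP1 ablated array 1.

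Cyp17a1, a steroid hydroxylase of female mouse liver, showed the largest rise among genes without overlap. It read 12.26, 11.91, 11.57 and 13.33 against 7.70, 8.33 and 10.12 and rose by 3.62 (SE 0.53; adjusted p = 0.000312), a 12.3-fold higher signal. Against CCl4 arrays 1 to 3, which also had a high Xist signal, it was 3.34 higher (adjusted p = 0.00245). Cux2, a transcription factor of female liver, read 8.13, 8.29, 8.72 and 8.82 against 5.99, 6.18 and 6.36 and rose by 2.31 (SE 0.14; adjusted p = 7.37e-08), and was 2.25 and 2.37 higher against CCl4 arrays 1 to 3 and 4 to 6. Sult1e1, the oestrogen sulphotransferase, read 6.83, 7.85, 6.32 and 7.97 against 5.90, 5.99 and 6.12 and rose by 1.24 (adjusted p = 0.00251), with 3 of 6 CCl4 arrays above background. Bcl6, a male-biased repressor, fell by 1.64 (adjusted p = 0.0178), but not against CCl4 arrays 1 to 3 (adjusted p = 0.134) or without FSP1 ablated array 2 (-1.40, adjusted p = 0.0734).

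**Figure D4:**
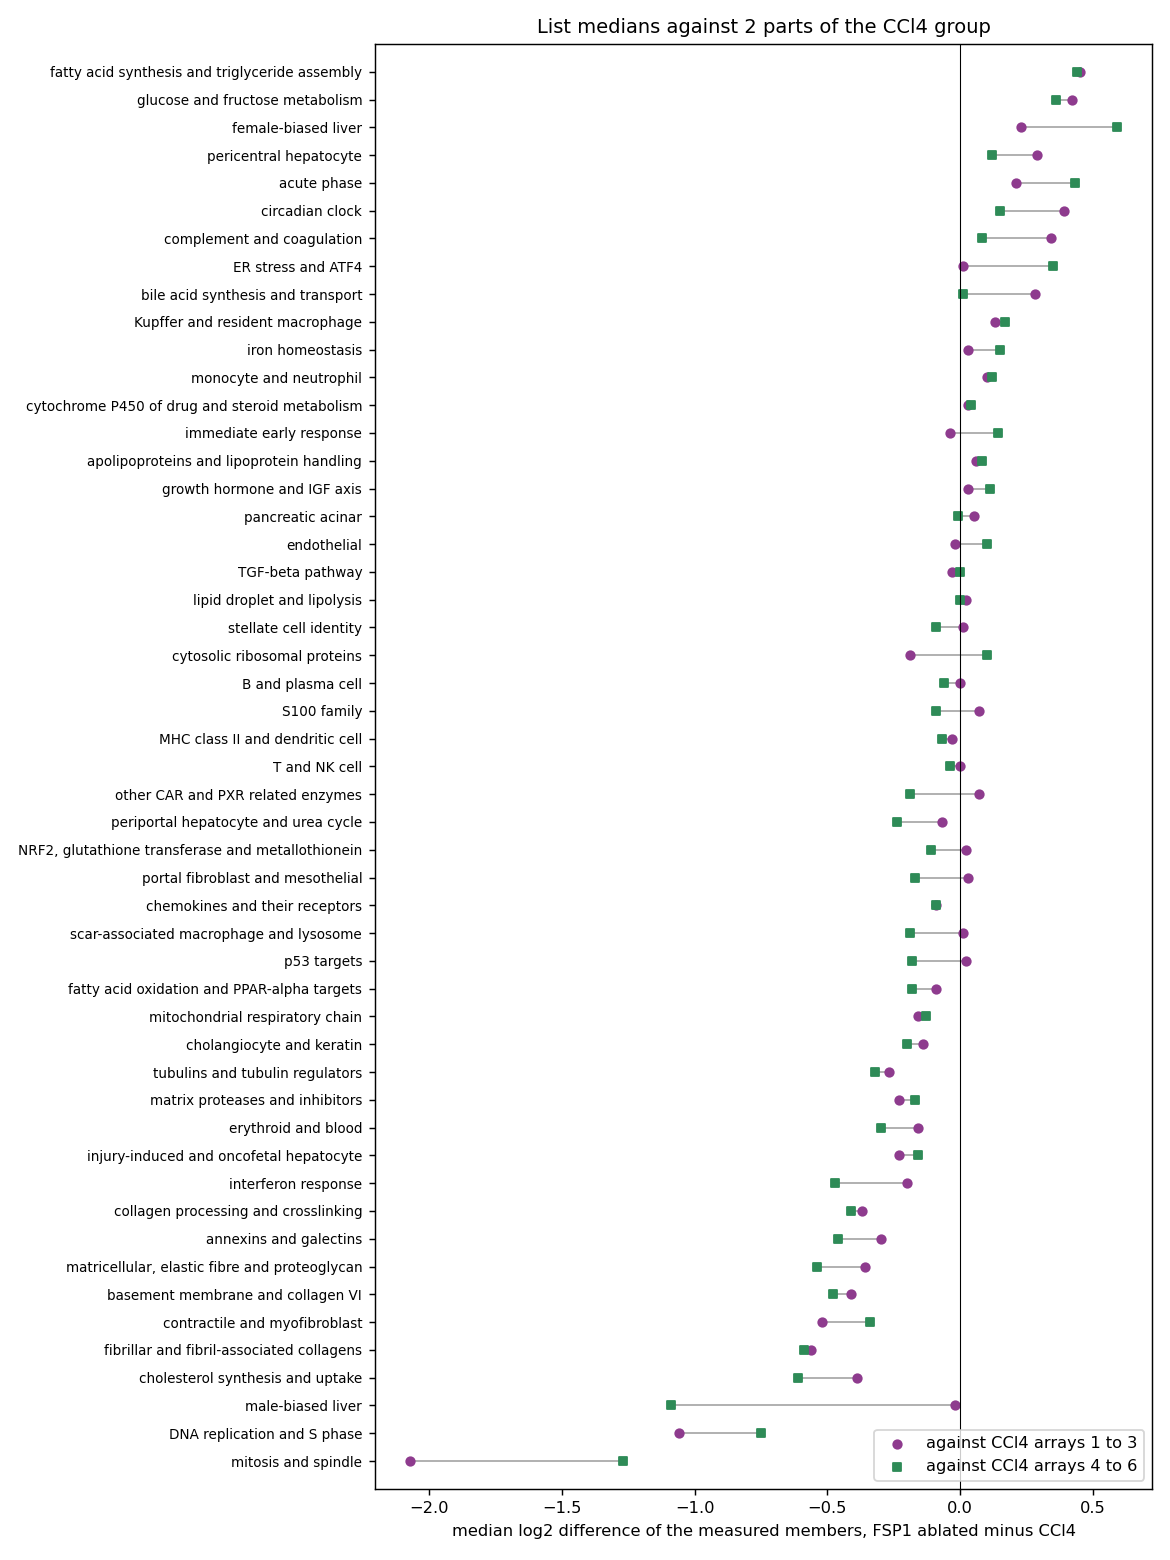
Median log2 difference of each gene list's measured members (x axis) of FSP1 ablated liver from CCl4 arrays 1 to 3 (circles) or 4 to 6 (squares), lists in the order of their overall median. The male-biased list shows the widest gap (-0.02 against -1.09), mitosis is low against both (-2.07 and -1.27), and fatty acid synthesis is at 0.45 and 0.44.

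Other large rises lay outside the lists. Extl1, an exostosin-like glycosyltransferase, read 9.41, 9.95, 9.21 and 9.40 against 6.55, 6.94 and 7.71 and rose by 2.47 (adjusted p = 9.2e-06). Ank, which exports ATP and pyrophosphate, read 10.16, 10.66, 10.25 and 10.15 against 8.24, 8.35 and 8.64 and rose by 1.90 (SE 0.11; adjusted p = 7.98e-08). Slc6a9, a glycine transporter, rose by 2.40 (adjusted p = 2.92e-05), and read 10.74, 11.85, 10.53 and 10.38 against 8.16, 8.42 and 8.94. For these genes every FSP1 ablated array exceeded every other array of the series. Their separation from the CCl4 arrays was a condition of their choice.

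Mfsd2a, a transporter of lysophospholipids, rose by 2.43 (adjusted p = 0.00259), and Csad, which makes taurine, rose by 2.25 (adjusted p = 0.00675), with arrays 2 and 4 inside its healthy range of 9.34 to 11.26. Aacs, which activates acetoacetate for lipid synthesis, rose by 1.77 (adjusted p = 0.00386), the channel gene Aqp11 by 1.78 (adjusted p = 0.000325) and the threonine aldolase Tha1 by 1.64 (adjusted p = 7.22e-05). Cabp2, a calcium-binding protein, read 7.86, 9.47, 7.46 and 6.72 against 5.86, 6.09 and 6.30 and rose by 1.80 (adjusted p = 0.00246). Mfsd2a, Csad, Aacs, Aqp11, Tha1 and Cabp2 were chosen among genes whose FSP1 ablated and CCl4 arrays did not overlap, so that separation is not further support.

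Few genes passed in the remaining lists. None of 20 circadian clock genes passed, but 5 were higher against CCl4 arrays 1 to 3 (median 0.39), and 2 were higher and 1 lower against arrays 4 to 6 (median 0.15). Of 44 ribosomal protein genes 1 rose and 1 fell, and of 62 respiratory chain genes 2 rose and 5 fell. The count of falling respiratory chain genes was 0 on the deposited scale, 1 without FSP1 ablated array 2 and 16 with array weights. It was 6 against CCl4 arrays 1 to 3 and 10 against arrays 4 to 6. Of 30 genes of ER stress and ATF4 3 rose and 1 fell, and none passed against CCl4 arrays 1 to 3 or rose without CCl4 array 5. In the growth hormone axis 1 of 24 rose, Socs2 at 1.62 (adjusted p = 0.041), and 1 fell, Bcl6, and Socs2 lost its call without FSP1 ablated array 2 or 3 or CCl4 array 1, 4, 5 or 6 (adjusted p from 0.0686 to 0.127). Among 21 further xenobiotic enzymes 1 rose and 1 fell. Alas1, which starts haem synthesis, was at 0.68 (adjusted p = 0.0498) and lost its call without FSP1 ablated array 1, 3 or 4 or CCl4 array 1, 2, 4 or 6 (adjusted p from 0.0635 to 0.144). Aldh1a1, which oxidises retinal, fell by 1.13 (adjusted p = 0.0104) but did not pass against CCl4 arrays 1 to 3 (-0.66, adjusted p = 0.0739). Of 8 pancreatic acinar genes 1 rose, Amy2a5 at 0.81 (adjusted p = 0.00404), and Cpa1 stayed at 5.89 to 5.97 on the FSP1 ablated arrays, near background.

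The direct comparison of the FSP1 ablated with the aSMA ablated livers asks where the FSP1 ablated livers differed from another ablation under the same injury. In the FSP1 ablated livers 15 of 31 mitosis genes, 3 of 8 fibrillar collagens and 6 of 17 annexins and galectins were lower, and 4 of 28 fat synthesis genes were higher. By limma 579 genes passed (4.43%), 243 higher and 336 lower in the FSP1 ablated livers. The count fell to 100 without aSMA ablated array 2, 206 without FSP1 ablated array 2, 231 without aSMA array 3, 322 without aSMA array 1 and 372 without FSP1 ablated array 1, so it rests on few arrays. Arrays were left out in turn for this count only, not for the single genes.

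Acta2 did not pass. It read 7.74, 9.34 and 7.47 on aSMA ablated arrays 1 to 3, and FSP1 ablated minus aSMA ablated gave -0.65 (SE 0.52; adjusted p = 0.536). Col1a1 passed, with 8.54, 9.66 and 8.03 on the aSMA ablated arrays and a difference of -1.95 (SE 0.36; adjusted p = 0.00893). Col3a1 differed by -1.34 (adjusted p = 0.0177) and Sparc by -1.39 (adjusted p = 0.0227), while Timp1 (-0.76, adjusted p = 0.155) and Serpinh1 (-0.66, adjusted p = 0.0566) did not pass. Of the contractile genes 5 of 17 were lower in the FSP1 ablated livers.

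The mitosis list had a median of -0.85 against aSMA ablated liver, and of the replication genes 8 of 40 were lower, with a median of -0.37, beside a median of 0.01 over all genes. Prc1 differed by -2.29 (adjusted p = 0.02), with 9.23, 10.26 and 9.77 on the aSMA ablated arrays. E2f1 differed by -0.93 (SE 0.11; adjusted p = 0.000502). Lgals1, at 11.14, 11.12 and 11.11 on the aSMA ablated arrays, differed by -2.13 (SE 0.25; adjusted p = 0.000502). Gsta1 differed by -2.40 (adjusted p = 0.00358), Cyp2c55 by -2.67 (adjusted p = 0.000118) and Golm1 by -1.67 (adjusted p = 0.00509).

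In the other direction, 4 of 28 fatty acid synthesis genes were higher and 1 lower than in aSMA ablated liver. Acaca was 1.88 higher (SE 0.34; adjusted p = 0.00767), Elovl6 2.53 higher (adjusted p = 0.0183) and Pklr 2.38 higher (adjusted p = 0.0127). Cux2, at 6.57, 6.49 and 7.10 on the aSMA ablated arrays, was 1.77 higher (SE 0.16; adjusted p = 4.01e-05), and Cyp17a1 2.49 higher (adjusted p = 0.0369). S100a3, not above background on any aSMA ablated array, also passed (adjusted p = 3.64e-08). Both groups of arrays carry a high Xist signal, 7.36 to 8.05 and 8.40 to 9.43. The coagulation genes F7 and F12 did not pass here (0.26, adjusted p = 0.309, and 0.22, adjusted p = 0.434), and neither did Cd163 (0.46, adjusted p = 0.301).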

How the data were processed

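Total RNA of whole mouse liver was read on 17 1-colour Illumina bead arrays. The deposited table holds linear intensity per probe, which the authors made with GenomeStudio per the submitters' processing notes, and the sources used here give no version or normalization. A second table has 34 columns whose names match no sample's labels, and they were not used. Of 25697 probes 23978 carried 1 gene symbol in GEO's platform annotation, 0 carried several and 1719 none.

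From the deposited intensity, values were corrected with normexp (offset 50), quantile normalized and taken to log2 in R 4.3.3 with limma 3.58.1. Probes above the 95th percentile of background on at least 3 arrays were kept (17763), and each gene took its probe with the highest mean, which gave 13065 genes, 1084 of them without a symbol. One linear model over all 17 arrays gave all contrasts, with empirical Bayes variances and Benjamini-Hochberg adjustment at 0.05. The number of arrays limits precision. The model was tested on simulated data with independent noise and no split within the CCl4 group. That test does not cover the split of the real CCl4 arrays.

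Named by rule were the 15 largest rises and 15 largest falls without overlap, up to 3 genes of each of 51 lists by smallest p, and 8 fixed genes, 175 in all. A further 41 were chosen after their values were seen, as were genes named to make up small counts. The members and lists were chosen with earlier results of these data known, and 1108 of 1379 list genes were measured. Replicates correlated at 0.974 to 0.989 (FSP1 ablated) and 0.964 to 0.995 (CCl4), and no arrays were identical. Other background, scaling, filter, variance and array choices were tried as alternatives.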

Additional observations from a re-analysis of the deposited data

Results flagged for a closer look

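Single arrays stood apart from their group for 35 values, by Dixon's test at 95% over 432 groups of 4 or 6 arrays. Chance alone marks about 1 group in 20. All are log2 signals of the genes named in the report or by its rule, and no cause was tested.

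CCl4 array 4 held 14 of them. Its histone probes were low, at 9.21 for H2ac10 (other CCl4 arrays 10.95 to 11.57), 8.56 for H2ac15 (10.55 to 11.38), 8.60 for H2ac22 (10.26 to 10.83) and 10.53 for H2ac24 (12.19 to 12.98). The cell cycle genes Uhrf1 at 8.51 (9.44 to 9.77) and Cdc6 at 6.33 (6.75 to 6.93) were low on it too, as were the lipid genes Fads2 at 9.05 (9.82 to 10.21), Ebp at 11.26 (11.83 to 12.12) and Apoc2 at 10.36 (11.23 to 11.55). It was high for the clock gene Per2 at 10.13 (7.92 to 8.50), Hamp2 at 12.64 (9.31 to 10.38), the duct keratin Krt7 at 7.12 (6.17 to 6.48), the respiratory chain gene Cox8a at 13.53 (13.14 to 13.27) and the carnitine transferase Cpt2 at 11.90 (11.44 to 11.59).

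Among the other CCl4 arrays, array 1 was high for Fasn at 6.83 (6.19 to 6.37), and array 6 was high for Anxa1 at 7.05 (6.57 to 6.71) and low for Cd28 at 5.82 (6.10 to 6.19).

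FSP1 ablated array 1 held 7 values, and matrix genes were the high ones: Col1a1 at 7.43 (other FSP1 ablated arrays 6.55 to 6.65), Col5a1 at 8.24 (7.5 to 7.59) and Sparc at 10.33 (9.26 to 9.36). It was also high for H2ac15 at 7.76 (7.46 to 7.47), H2ac24 at 9.59 (9.07 to 9.10) and Adgre1 at 8.21 (7.94 to 7.97), and low for Cygb at 8.55 (8.88 to 8.92). Array 2 was high for Tha1 at 10.43 (9.40 to 9.50) and Lgals8 at 10.64 (10.10 to 10.19).

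FSP1 ablated array 3 was low for S100a11 at 9.35 (10.71 to 10.86), Tubb6 at 7.83 (8.83 to 8.94) and Cdh1 at 7.29 (8.03 to 8.19), and high for the chemokine Ccl4 at 7.08 (6.28 to 6.31), Egr2 at 6.49 (6.26 to 6.29) and Srebf1 at 9.16 (8.12 to 8.25). Array 4 was low for Elovl6 at 9.69 (11.69 to 12) and Myl6 at 11.65 (11.81 to 11.82), and high for Lbp at 12.51 (11.68 to 11.78).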

How the results depend on the processing

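Against CCl4 liver, 1105 to 1749 genes passed with 1 array left out, against 1663 with all, and only leaving out FSP1 ablated array 2 moved the count by over 1.5 times. The count was 1179 on the deposited scale (all-gene median 0.19), 1905 when arrays were centred on their median, 1311 with only the arrays compared, 2264 with array weights and 1252 with the replicate number as a block. Against aSMA ablated liver, where 579 passed, array weights gave 2487, and leaving out 1 array gave 100 to 687. Centring gave 830 there, 196 higher and 634 lower, against 243 and 336, and the replicate block gave 558. Deviations of same-numbered FSP1 ablated and CCl4 arrays correlated at 0.12, 0.24, -0.30 and 0.04. Each FSP1 ablated array correlated better with a CCl4 array of another number, so the number was not taken as a pairing. FSP1 ablated array 3 was at 0.22 to 0.31 with CCl4 arrays 4 to 6 and at -0.40 to -0.20 with arrays 1 to 3. FSP1 ablated arrays 1 and 2 went the other way, at -0.18 to -0.06 and 0.03 to 0.25. No call of a named gene changed sign under any alternative run. Of the 163 named genes that passed, 107 did so under all 24 alternatives. The calls lost were 36 with the replicate block, 41 against CCl4 arrays 1 to 3, 20 against arrays 4 to 6, 21 on the deposited scale and 21 without FSP1 ablated array 2. Against CCl4 arrays 1 to 3 Hgf, Skil, Smad4, Fabp5, Cd180, Stab2, Hamp, Lbp, Alas1, Socs2, Slc11a2 and Fads1 did not pass (adjusted p from 0.0501 to 0.293), nor did Fabp5, Stab2, Hamp, Lbp, Alas1, Slc11a2, Fads1 and Hamp2 against arrays 4 to 6 (0.0508 to 0.131). The replicate block ended all 3 calls of the TGF-beta list, and of genes in the report those of Aldh1b1, Apoc2, Bcl6, Clec4f, Ebp, Folr2, Inhba, Lgals3, Mmp12, Lbp, Ccl4 and G6pc among others. The other causes were not tested. Sizes of dim genes depended on the offset: of the 163, the log2 difference was over 1.5 times larger for 14 with an offset of 16, 39 without background correction and 37 on the deposited scale. Over all alternatives it ran from 1.88 to 4.68 for S100a3, 2.15 to 4.23 for Cux2, 1.0 to 3.2 for Sult1e1, 1.27 to 3.95 for Cabp2, -0.80 to -2.24 for Tnc, -0.48 to -1.87 for Nes and -0.68 to -2.38 for Cdc6. Signal near background thus limits what the sizes of such genes show.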
